A study of Mus musculus with 23 samples.

Results

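The respiratory chain and the ATP synthase were followed gene by gene in mouse splenic CD4+ T cells, across both genomes that encode them. Members were the protein-coding genes of the deposited table whose symbols begin with Ndufa, Ndufb, Ndufc, Ndufs, Ndufv, Sdha to Sdhd, Uqcr, Cox4i, Cox5, Cox6, Cox7, Cox8, Atp5, mt-Nd, mt-Co, mt-Cytb or mt-Atp. This gave 110 of 53379 gene IDs, with 13 symbols of pseudogenes and non-coding genes left out. The nuclear genome held 97 of them: 84 subunits (36 of complex I, 4 of complex II, 8 of complex III, 20 of complex IV and 16 of complex V) and 13 assembly and related factors caught by the same prefixes (Ndufaf1 to Ndufaf8, Sdhaf1 to Sdhaf4 and Atp5s). The mitochondrial genome held the other 13 (7 of complex I, 1 of complex III, 3 of complex IV and 2 of complex V). After the filter on low counts, 101 members were tested: 80 nuclear subunits, 8 mitochondrial genes and the 13 factors.

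The cells came from the spleen of C57BL/6 mice, and a CD45+CD3+CD4+CD8- gate was used for the sort. They were cultured for 72 h, with IL-2 named at 30 IU/ml, and were either stimulated with antibodies against CD3 and CD28 or left unstimulated in IL-2 alone. Both states were set up with 5 mM niacin and without it, in cells labelled Gpr109a-/- and in cells labelled wild type, which makes 8 groups. Hcar2, the niacin receptor gene, was formerly called Gpr109a. Each group had 3 libraries, apart from unstimulated knockout-labelled cells with niacin, which had 2. The labels do not say whether the libraries of a group came from separate animals, so the p-values reflect only how far these libraries vary, which may be technical.

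Oxidative phosphorylation passes electrons from NADH (complex I) and succinate (complex II) through complex III to complex IV, which reduces oxygen. Complexes I, III and IV pump protons, and complex V, the ATP synthase, uses their return to make ATP. Mitochondrial DNA, transcribed by a dedicated polymerase, encodes membrane core subunits of complexes I, III and IV and part of the ATP synthase membrane sector. The nucleus encodes complex II, the other core subunits and the accessory subunits, so the 2 genomes have to supply matching parts. Resting T cells rely largely on oxidative phosphorylation, and activated T cells are known for high glycolysis together with mitochondrial growth.

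The libraries held 13205565 to 30090018 counts, with a median of 24007159. Hcar2 had counts in 10 of the 11 knockout-labelled libraries (169 counts in all) and a single count over the 12 wild-type-labelled libraries. These low counts run opposite to the labels. They are per gene and do not show which part of the gene was read, and the cause was not tested. Groups are therefore named by their labels here. Unstimulated knockout-labelled library 3 without niacin had the lowest total and lay outside the range of the other 10 unstimulated libraries for 62 of 93 nuclear members (25 above, 37 below), where 28.2% of all tested genes lay above and 32.3% below. Its count column alone lacks the tag jax in the header, and the meaning of the tag is not stated. Mitochondrial genes took 0.187% and 0.217% of the counts in libraries 1 and 2 from stimulated, niacin-treated wild-type-labelled cells (0.605% in library 3), and 0.346% in library 1 from untreated, unstimulated wild-type-labelled cells (0.937% and 0.802% in libraries 2 and 3). These are the 4 libraries that stood apart. Levels are in CPM (library totals scaled by TMM factors). The summed CPM of 9 CD4 T cell markers was 6157 to 7923 in stimulated and 4416 to 6341 in unstimulated libraries, and no marker was at 0. The CD8 T cell markers Cd8a and Cd8b1 summed to 7.87 to 29.2 CPM over all libraries, with Cd8a at most at 5.03 CPM. B cell markers summed to at most 10.3 CPM and myeloid and dendritic cell markers to at most 9.45 CPM. The 7 markers of NK and gamma delta T cells summed to 10.5 to 26.1 CPM in stimulated and 39.5 to 125.8 CPM in unstimulated libraries, with Klra8 at 0 in every library, and the part of this in the differences below was not tested. CPM are shares of a library, so a change in total RNA per cell is not seen, and in bulk samples fewer cells of a type and less RNA per cell cannot be told apart.

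Stimulation was accompanied by higher nuclear subunit transcripts in all 5 complexes. Of the 80 nuclear subunits tested, 71 were called higher in stimulated than in unstimulated knockout-labelled cells with niacin (24.5% of all genes tested were called higher), 71 in wild-type-labelled cells with niacin (26% of all genes), 70 in knockout-labelled cells without niacin (25.2%) and 69 in wild-type-labelled cells without niacin (23.4%). At most 1 subunit was called lower in any of these comparisons, where 25.3%, 26.6%, 27.5% and 21.7% of all genes were lower in the same order. The median log2 fold change of the 80 subunits was 1.06, 0.97, 0.87 and 0.83 in that order, beside -0.07, -0.10, -0.13 and -0.07 over all genes tested. Of the 80, 60 passed as higher in all 4 comparisons and only Ndufb4, an accessory subunit of complex I, passed in none. The 4 comparisons share no library. Leaving out unstimulated knockout-labelled library 3 gave 72 in its own comparison. Without overlap between the compared groups, 76, 71, 73 and 73 of the 80 lay higher in the same order, and 1 lower in each. Of all 16882 genes tested, 5971, 5092, 4687 and 5117 lay higher without overlap and 6650, 5538, 4556 and 5167 lower.

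Summed over the 84 nuclear subunits, transcripts reached 15031 to 19043 CPM in the 12 stimulated libraries, against 7569 to 9735 CPM in the 11 unstimulated libraries, so the 2 states did not overlap in any group. The group sums were 18016 ± 950.0 CPM in stimulated and 8232 ± 671 CPM in unstimulated knockout-labelled cells with niacin (SD, n = 3 and 2). In wild-type-labelled cells with niacin they were 16353 ± 989 CPM in stimulated and 8164 ± 899 CPM in unstimulated cells (SD, n = 3 each). Without niacin, knockout-labelled cells had 17026 ± 229 CPM when stimulated and 8736 ± 388 CPM when unstimulated, and wild-type-labelled cells 15951 ± 1202 CPM when stimulated and 9132 ± 739 CPM when unstimulated (SD, n = 3 each).

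**Figure D1:**
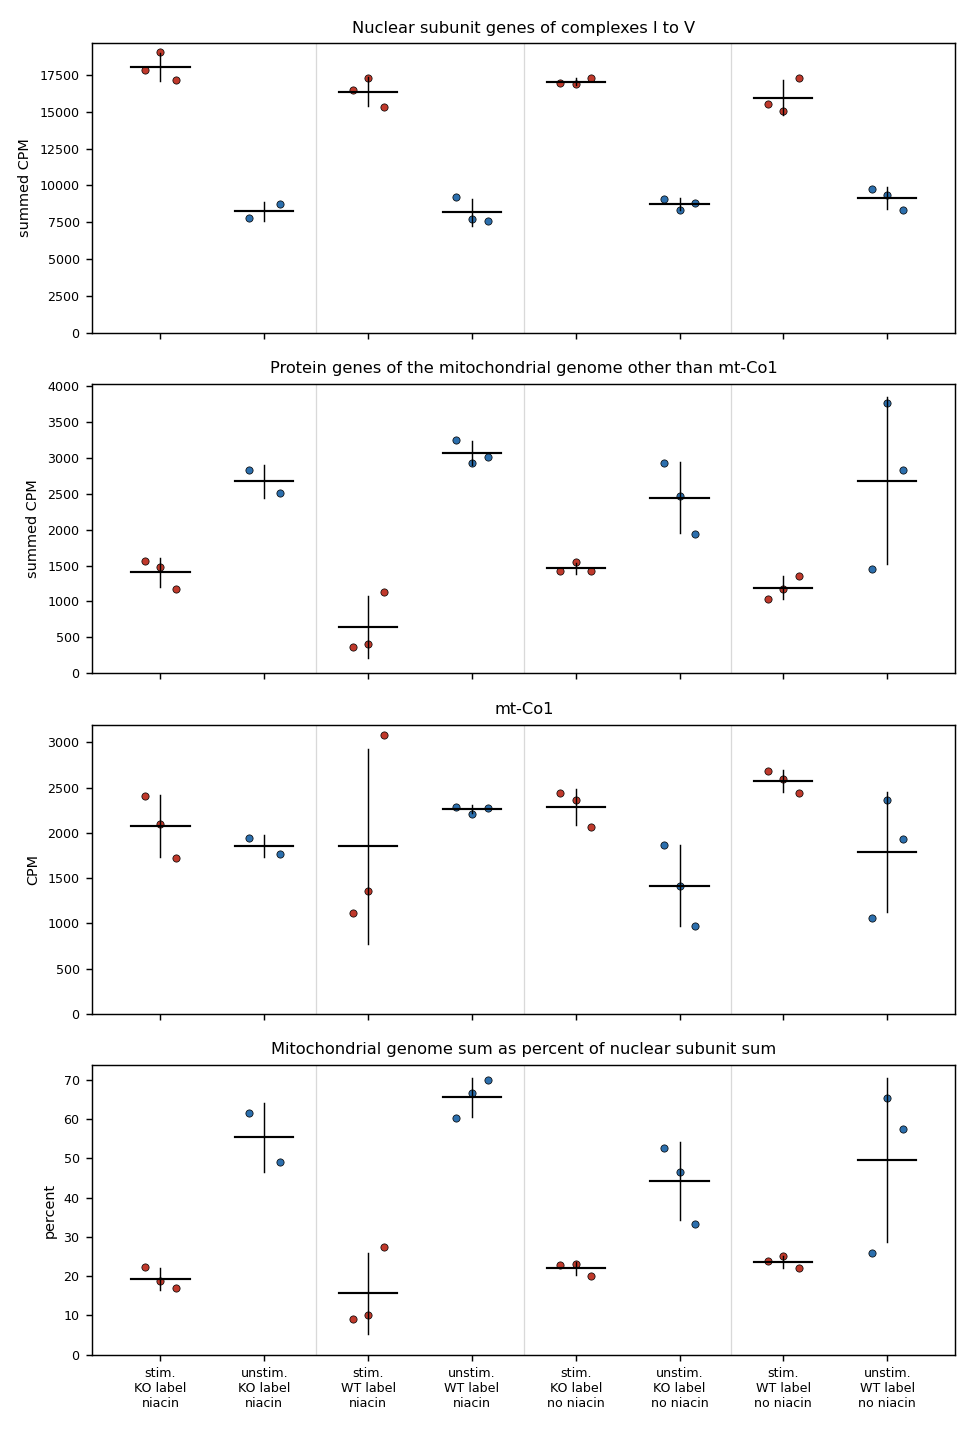
Summed CPM per library of the 84 nuclear subunit genes, of the mitochondrial protein genes other than mt-Co1, of mt-Co1 alone, and the mitochondrial sum as a percent of the nuclear sum, in the 8 groups (red, stimulated; blue, unstimulated; points are libraries, horizontal bars means and vertical bars SD). The nuclear sums of stimulated libraries (15031 to 19043 CPM) lie above all unstimulated ones (7569 to 9735 CPM), while the percent lies lower except where stimulated wild-type-labelled library 3 with niacin (27.5%) passes unstimulated wild-type-labelled library 1 without niacin (25.8%). The mitochondrial sums in effect lack mt-Co2, mt-Co3, mt-Atp6, mt-Nd4l and mt-Atp8, which had almost no counts.

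The shift was of similar size in the nuclear parts of the 5 complexes. In knockout-labelled cells with niacin the median log2 fold change was 0.95 for complex I, 1.08 for complex II, 1.06 for complex III, 1.22 for complex IV and 1.10 for complex V. In wild-type-labelled cells with niacin the medians were 0.97, 1.04, 1.07, 1.09 and 0.86 for complexes I to V. Without niacin they were 0.83, 0.99, 0.96, 1.00 and 0.76 in knockout-labelled cells and 0.73, 0.75, 0.86, 0.96 and 0.76 in wild-type-labelled cells. Complex IV had the highest median in all 4 comparisons, with 4 isoforms near the detection limit counted in it. The order of the other complexes varied, and differences between complexes were not tested. Of the 76 subunits left after setting aside 4 isoforms near the detection limit, 66, 60, 61 and 58 had log2 fold changes between 0.5 and 1.5, in the order knockout-labelled with niacin, wild-type-labelled with niacin, knockout-labelled without and wild-type-labelled without.

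**Figure D2:**
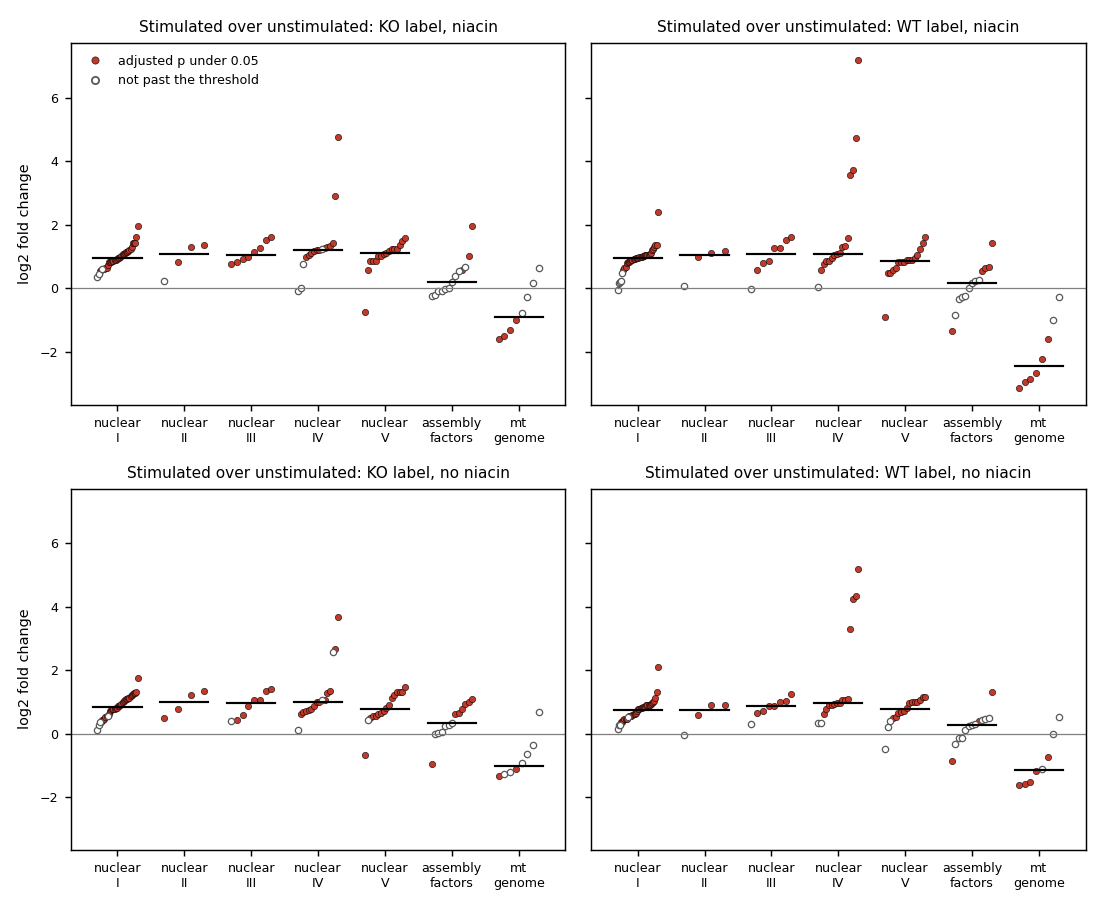
Log2 fold change, stimulated over unstimulated, of each tested member by complex and genome in the 4 comparisons (filled red, edgeR adjusted p under 0.05; open, not past the threshold; bars, medians). Nuclear subunits cluster near 1 in every complex, while the mitochondrial genes have medians of -0.90, -2.45, -1.02 and -1.14 in knockout-labelled cells with niacin, wild-type-labelled cells with niacin, and knockout-labelled and wild-type-labelled cells without.

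Complex I takes electrons from NADH, and 33, 31, 32 and 32 of its 36 nuclear subunits passed as higher in the same order of comparisons. Leaving aside the low isoforms, the largest change of any nuclear subunit in all 4 comparisons was that of Ndufv3, an accessory flavoprotein subunit of the NADH-binding module. With niacin, Ndufv3 stood at 283, 294 and 266 CPM in stimulated and 65.3 and 79.99 CPM in unstimulated knockout-labelled cells, and at 373, 339.9 and 311 CPM in stimulated and 64.5, 63.5 and 65.2 CPM in unstimulated wild-type-labelled cells. Without niacin it stood at 281, 252 and 247 CPM in stimulated and 73.9, 76.0 and 79.9 CPM in unstimulated knockout-labelled cells, and at 350.1, 273 and 314 CPM in stimulated and 77.9, 76.9 and 65.5 CPM in unstimulated wild-type-labelled cells. All stimulated libraries lay far above all unstimulated ones. The log2 fold changes of Ndufv3 were 1.95 ± 0.15, 2.41 ± 0.13, 1.76 ± 0.12 and 2.09 ± 0.13 (SE), with adjusted p of 2.84e-09, 9.14e-12, 7.51e-10 and 7.48e-11.

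Other complex I members moved by less. Ndufv1, the core flavoprotein that binds NADH, had log2 fold changes of 0.96, 0.97, 0.76 and 0.60 (adjusted p at most 0.0025). Ndufc2, an accessory subunit of the membrane arm, rose by 1.61, 1.36, 1.07 and 1.31. Ndufs8, an iron-sulfur core subunit, rose by 1.24, 1.37, 1.05 and 0.83. Ndufs1, the largest iron-sulfur core subunit, did not follow them in every group. It had 132, 156 and 148 CPM in stimulated and 95.5 and 95.7 CPM in unstimulated knockout-labelled cells with niacin, but 84.8, 100.1 and 110.0 CPM in stimulated and 116, 99.9 and 92.1 CPM in unstimulated wild-type-labelled cells with niacin. The knockout-labelled groups did not overlap, and the wild-type-labelled groups did. Its log2 fold change was 0.60 ± 0.26 (adjusted p = 0.063), -0.06 ± 0.23 (0.832), 0.81 ± 0.23 (0.00674) and 0.16 ± 0.23 (0.6). Unstimulated knockout-labelled library 3 had 38.8 CPM of Ndufs1, and without it the knockout-labelled value without niacin was 0.47 (adjusted p = 0.00575). Ndufb4 stood at 5.34 to 9.45 CPM in stimulated and 3.17 to 7.18 CPM in unstimulated libraries, with log2 fold changes of 0.36, 0.19, 0.56 and 0.26 that did not pass (adjusted p from 0.0804 to 0.562). Near-identical copies hold 40.2% of its transcript, with 390 bases at 100% identity in the pseudogene Ndufb4c on chromosome 15, so its values are uncertain.

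Complex II, succinate dehydrogenase, is encoded in the nucleus alone and is shared with the tricarboxylic acid cycle. Its iron-sulfur subunit Sdhb had 445, 468 and 446 CPM in stimulated and 173 and 192 CPM in unstimulated knockout-labelled cells with niacin, and 421, 467 and 366 CPM in stimulated and 221, 178 and 162 CPM in unstimulated wild-type-labelled cells with niacin. Sdhb rose by 1.31, 1.16, 1.21 and 0.90 (adjusted p at most 1.16e-05), and no stimulated library overlapped an unstimulated one. The membrane anchors rose too, Sdhc by 0.84, 0.98, 0.77 and 0.60 and Sdhd by 1.35, 1.10, 1.34 and 0.91. The flavoprotein subunit Sdha, which carries the catalytic site, stood apart from its partners. Sdha had 453, 477 and 456 CPM in stimulated and 396 and 391 CPM in unstimulated knockout-labelled cells with niacin, and 371, 436 and 411 CPM in stimulated and 394, 388 and 387 CPM in unstimulated wild-type-labelled cells with niacin. Without niacin, it had 451, 471 and 501.0 CPM in stimulated and 389, 390.4 and 229 CPM in unstimulated knockout-labelled cells, and 402, 427 and 456 CPM in stimulated and 427, 490.3 and 415 CPM in unstimulated wild-type-labelled cells. Both pairs of wild-type-labelled groups overlapped, and both pairs of knockout-labelled groups did not. The log2 fold change of Sdha was 0.23 ± 0.17 (adjusted p = 0.258), 0.06 ± 0.15 (0.752), 0.50 ± 0.15 (0.00816) and -0.05 ± 0.15 (0.787). Without the low library of 229 CPM the passing value was 0.28 (adjusted p = 0.0169).

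In complex III, which moves electrons from ubiquinol to cytochrome c, 8, 7, 7 and 7 of 8 nuclear subunits rose. Uqcrfs1, the Rieske iron-sulfur protein, had 318, 317 and 313 CPM in stimulated and 101 and 103 CPM in unstimulated knockout-labelled cells with niacin. It had 314, 311 and 289.7 CPM in stimulated and 120.4, 102 and 95.2 CPM in unstimulated wild-type-labelled cells with niacin. Its stimulated libraries without niacin held 262 to 312 CPM and the unstimulated ones 96.4 to 138 CPM, again with no overlap. Uqcrfs1 rose by 1.62 ± 0.15, 1.53 ± 0.13, 1.33 ± 0.13 and 1.25 ± 0.13 on the log2 scale (adjusted p at most 1.43e-07). Uqcrc1, a large core protein of the matrix arm, moved less, by 0.75, 0.59, 0.43 and 0.30, and the last of these did not pass (adjusted p = 0.0898). Uqcrq, a small subunit that binds ubiquinone, rose by 1.53, 1.63 and 1.01 in 3 of the comparisons and had a log2 fold change of 0.40 in knockout-labelled cells without niacin (adjusted p = 0.335). Without library 3 of their unstimulated cells that last value was 1.32 (adjusted p = 2.24e-05).

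Complex IV, cytochrome c oxidase, has 3 mitochondrially encoded core subunits and many nuclear ones, several with tissue-specific isoforms. Its regulatory subunit Cox4i1 had 503, 559 and 471 CPM in stimulated and 204 and 237 CPM in unstimulated knockout-labelled cells with niacin, and 584, 558 and 465 CPM in stimulated and 231, 199 and 204 CPM in unstimulated wild-type-labelled cells with niacin. Cox4i1 rose by 1.21, 1.34, 1.07 and 0.95 (adjusted p at most 4.52e-06). Cox5a, which contacts Cox4i1 on the matrix side, rose by 1.43, 1.06, 1.01 and 1.07, and the zinc-binding Cox5b by 1.10, 1.10, 0.75 and 0.78. Cox8a, the ubiquitous form of the smallest subunit, rose by 1.27, 1.57, 0.71 and 1.06. Cox7a2l, a relative of Cox7a, changed differently. It stood at 73.8, 83.6 and 65.7 CPM in stimulated and 77.5 and 71.4 CPM in unstimulated knockout-labelled cells with niacin, and at 120.4, 121 and 96.4 CPM in stimulated and 68.7, 78.4 and 81.0 CPM in unstimulated wild-type-labelled cells with niacin. The knockout-labelled groups overlapped and the wild-type-labelled groups did not. Its log2 fold change was 0.00 ± 0.15 (adjusted p = 0.994), 0.57 ± 0.13 (0.00142), 0.13 ± 0.13 (0.435) and 0.32 ± 0.13 (0.054), while Cox7a2, the common form, rose by 1.32, 1.08, 1.34 and 0.92. Ndufa4, once counted in complex I and now known as a subunit of complex IV, passed only in knockout-labelled cells without niacin (0.79, adjusted p = 0.0241). There its unstimulated library 3 held 34.0 CPM beside 102.8 and 96.9 CPM, and without it the value was 0.43 (adjusted p = 0.0785).

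The complex IV isoforms of muscle, lung and testis were near the detection limit. Cox8c and Cox7b2, both known from testis, had no count in any library, and Cox8b, known from heart and skeletal muscle, had counts only in unstimulated cells, never above 4 per group. Cox7a1, the form of heart and skeletal muscle, pooled to 1.28 CPM in stimulated and 0.162 CPM in unstimulated knockout-labelled cells with niacin, and to 1.27 and 0.101 CPM in stimulated and unstimulated wild-type-labelled cells with niacin. Cox7a1 was called higher in all 4 comparisons (adjusted p from 0.00013 to 0.00261), with pooled count ratios of 7.90, 12.6, 14.96 and 10.3. Cox4i2, known from lung, had 54 counts in stimulated and 0 in unstimulated wild-type-labelled cells with niacin, which is at least 20.9-fold higher against a limit of 3 counts over the group. In the other comparisons its ratio was 33.7 (95% interval 5.76 to 1356) in knockout-labelled cells with niacin, 5.97 (2.81 to 14.6) in knockout-labelled cells without and 42.9 (11.6 to 359) in wild-type-labelled cells without. Cox4i2 passed in all 4 (adjusted p from 0.000413 to 0.0286), but not in knockout-labelled cells without niacin when library 3 of the unstimulated cells was left out (0.0679). Cox6b2, the testis form, passed in wild-type-labelled cells only, at 13.2-fold with niacin (7.48 to 25.4) and 19.6-fold without (8.17 to 61.7), against 2.38-fold (1.49 to 3.91) and 1.99-fold (1.31 to 3.07) in knockout-labelled cells. The difference between the labels in this change did not pass with niacin or without it, as no member did. Cox6a2, the heart and skeletal muscle form, also passed in wild-type-labelled cells, at 37.1-fold with niacin (6.19 to 1510.0, from 32 counts against 1) and 23.7-fold without (6.24 to 200.4), and had 4 counts in stimulated and 3 in unstimulated knockout-labelled cells with niacin. Without niacin, knockout-labelled cells had 25 counts of Cox6a2 in stimulated and 4 in unstimulated cells, a ratio of 5.97 (2.06 to 23.6) that did not pass (adjusted p = 0.0678). Ndufa4l2, a hypoxia-induced relative of Ndufa4, had 5 to 17 counts per stimulated group and none in unstimulated cells, so it was at least 1.79-fold to 5.41-fold higher. The intervals cover counting error only. Levels per kb set these isoforms apart from the common forms: Cox6a1 stood at 557 ± 48.6 and Cox8a at 570.0 ± 78.8 CPM per kb in stimulated knockout-labelled cells with niacin (SD, n = 3).

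**Figure D3:**
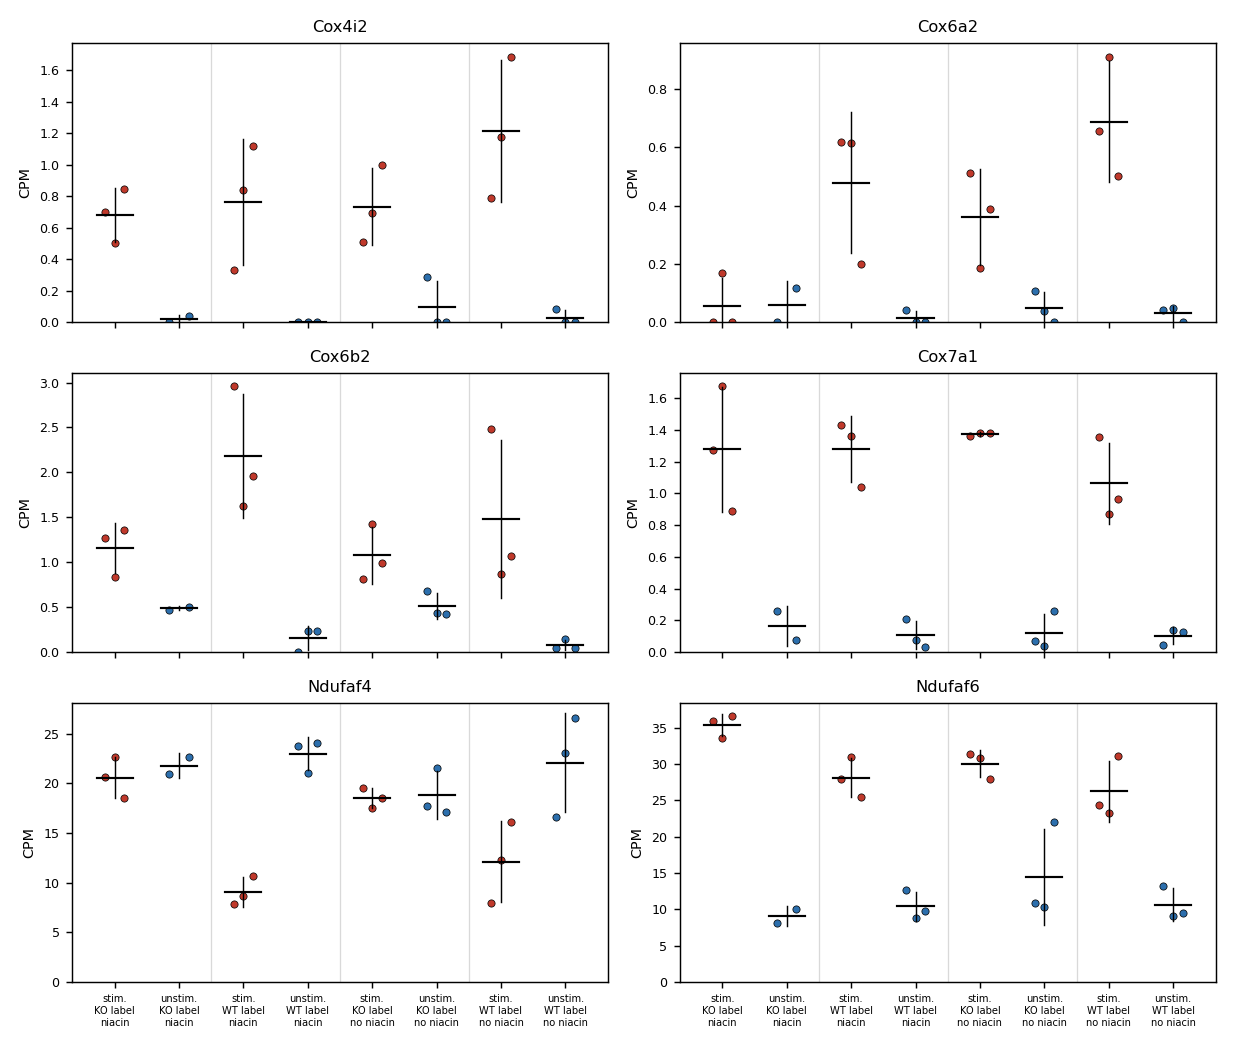
CPM per library of 4 low complex IV isoforms and of the complex I assembly factors Ndufaf4 and Ndufaf6 in the 8 groups (red, stimulated; blue, unstimulated; horizontal bars, means; vertical bars, SD). Cox7a1 stays at or under 1.68 CPM, Ndufaf6 is higher in all stimulated groups, and Ndufaf4 is lower in the stimulated wild-type-labelled groups (7.82 to 16.1 CPM) than in all others (16.7 to 26.6 CPM).

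By CPM, complex V held the most abundant nuclear member. Atp5b, the catalytic beta subunit, had 2943, 2977 and 3185 CPM in stimulated and 959.5 and 1059 CPM in unstimulated knockout-labelled cells with niacin, and 2438, 2824 and 2353 CPM in stimulated and 1305, 983 and 915 CPM in unstimulated wild-type-labelled cells with niacin. Without niacin it had 2816, 3007 and 3192 CPM in stimulated and 1235, 1065 and 971 CPM in unstimulated knockout-labelled cells, and 2319, 2475 and 2627 CPM in stimulated and 1453, 1181 and 1067 CPM in unstimulated wild-type-labelled cells. Every stimulated library lay above every unstimulated one. Atp5b rose by 1.59 ± 0.16, 1.25 ± 0.14, 1.46 ± 0.14 and 1.00 ± 0.14 (adjusted p at most 7.59e-06), and Atp5a1, the alpha subunit that alternates with it, by 1.09, 0.89, 0.90 and 0.65. Per kb, Atp5b reached 716 ± 31.0 CPM per kb in stimulated and 238 ± 16.5 CPM per kb in unstimulated knockout-labelled cells with niacin (SD, n = 3 and 2). The 3 genes for the c subunit of the rotor ring, whose mature proteins are identical, differed in level and change. Atp5g3 had 250.5 ± 23.2, Atp5g1 23.9 ± 2.28 and Atp5g2 21.9 ± 2.71 CPM per kb in stimulated knockout-labelled cells with niacin (SD, n = 3). Without division by length, their means there were 546, 117 and 36.7 CPM. The longest transcript of Atp5g1 has 4715 bases, against 753 for Atp5g2, so the order of these 2 depends on the length used. Near-identical stretches in 17 other genes cover 18.2% of the Atp5g1 transcript. Atp5g3 rose by 1.37, 0.82, 1.11 and 0.96 and Atp5g2 by 1.01, 1.42, 0.82 and 1.07, while Atp5g1 rose by 0.87, 0.65 and 0.63 and had 0.22 in wild-type-labelled cells without niacin (adjusted p = 0.291). Atp5d, the delta subunit of the central stalk, rose by 1.23, 1.61 and 1.14 and had 0.43 in knockout-labelled cells without niacin (adjusted p = 0.161), or 1.03 (2.44e-05) without library 3 of their unstimulated cells.

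Atp5l, the g subunit of the membrane sector, was the only nuclear subunit called lower. It had 7.76, 7.33 and 6.60 CPM in stimulated and 14.3 and 10.1 CPM in unstimulated knockout-labelled cells with niacin, and 6.25, 6.43 and 8.64 CPM in stimulated and 11.3, 14.1 and 14.8 CPM in unstimulated wild-type-labelled cells with niacin. The stimulated libraries lay below the unstimulated ones in each pair of groups. Its log2 fold change was -0.75 ± 0.23 (adjusted p = 0.00988), -0.91 ± 0.21 (0.00109), -0.68 ± 0.21 (0.0104) and -0.48 ± 0.21 (0.0677). These values are uncertain, because 72.2% of its transcript is shared with 10 near-identical copies in the genome and the sources used here do not say how reads with several matches were counted. At 95% identity or more over at least 100 bases, 27 of the 97 nuclear members had such copies, and for 8 they covered 50% or more of the transcript.

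**Figure D4:**
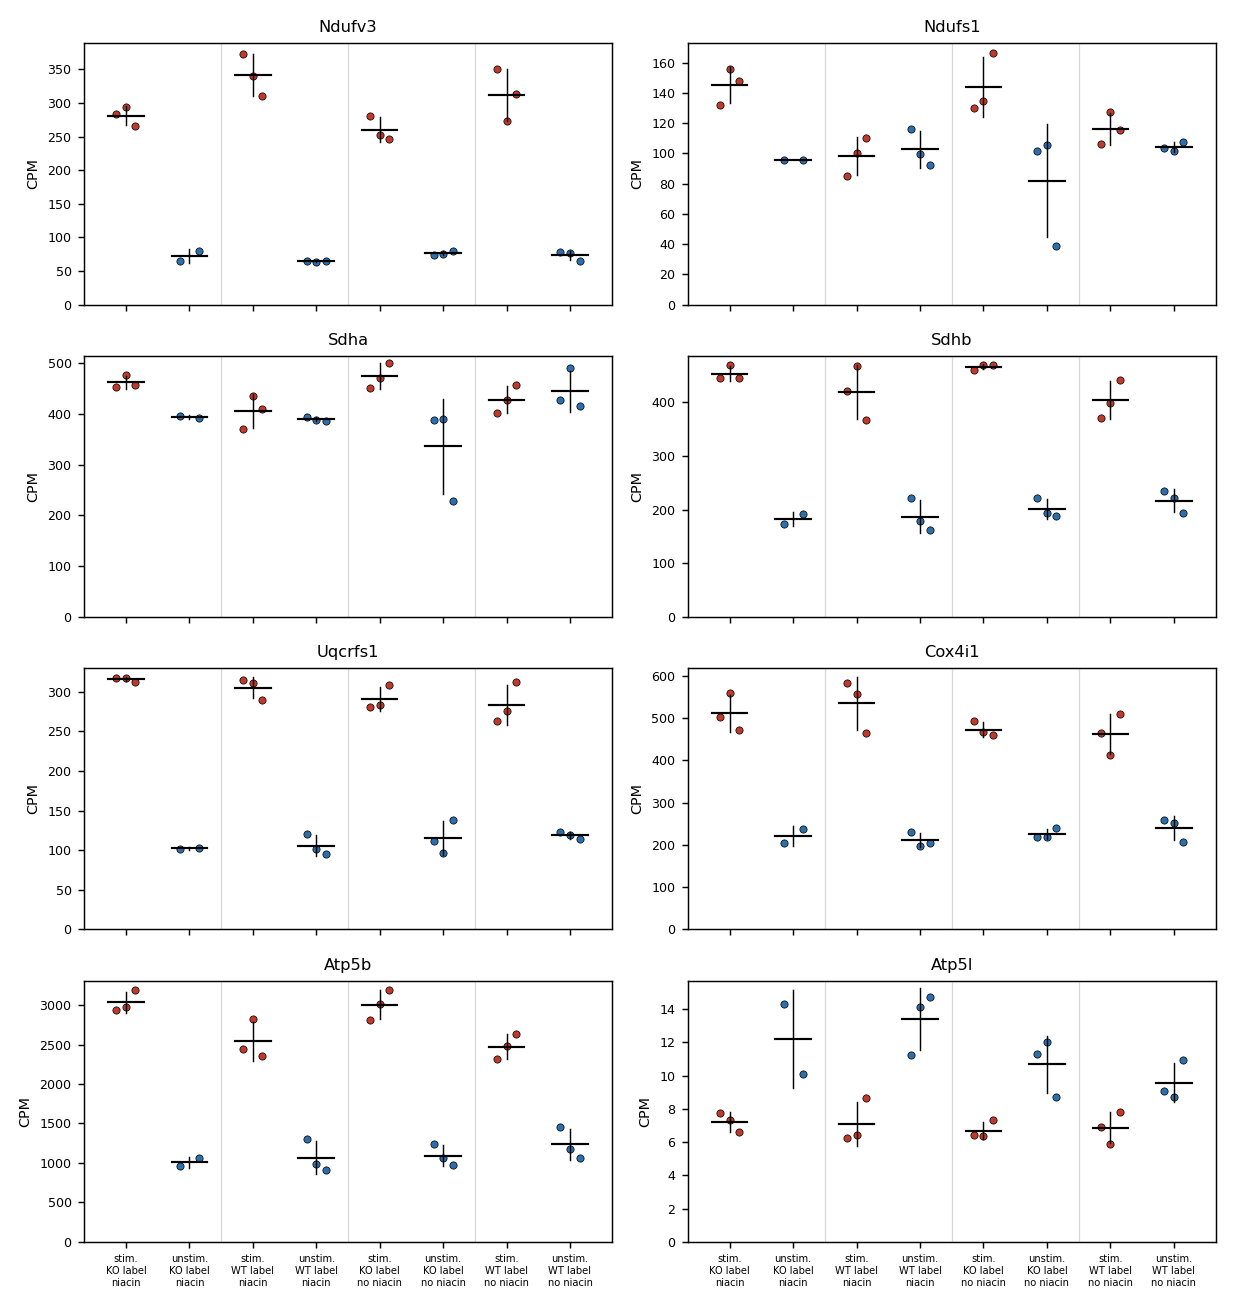
CPM per library of 8 nuclear subunits in the 8 groups (red, stimulated; blue, unstimulated; horizontal bars, means; vertical bars, SD). Ndufv3, Sdhb, Uqcrfs1, Cox4i1 and Atp5b separate stimulated from unstimulated libraries in every pair of groups, Sdha and Ndufs1 overlap in wild-type-labelled cells, and Atp5l runs the other way.

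Binding motifs of factors known to drive these genes (NRF1, GABPA and YY1) were searched in the 300 bases around gene starts, 250 before and 50 after, in the RefSeq promoter table (GRCm38.p6). It held 85 windows for 80 of the 97 nuclear members. NRF1 (GCGCA and GCGC with any 1 base between them) matched in 25.9% of them and in 4.6% of all 32851 windows, YY1 (AAGATGGCG) in 9.4% and 1.4%, and GABPA (CCGGAAGT) in 5.9% and 3.9%. At least 1 of the 3 matched in 38.8% of the members' windows and in 9.2% of all windows. The hypoxia core ACGTG matched in 24.7% and 19.6%. Both strands were searched, the motifs do not overlap each other in the windows below, and a match is a description of the letters, not of binding. The windows below were chosen to set subunits that rose with motifs (Cox6a1, Cox8a and Ndufs6) beside Sdha, which has 3 NRF1 matches and passed in 1 comparison, and Ndufv3, which had the largest nuclear change and no match. Motif matches are in capitals, each window is read 5′ to 3′ along the gene, and a match on the other strand appears as the reverse complement.
Cox6a1 (chr5:115348909-115349208, minus strand; 2 NRF1 matches): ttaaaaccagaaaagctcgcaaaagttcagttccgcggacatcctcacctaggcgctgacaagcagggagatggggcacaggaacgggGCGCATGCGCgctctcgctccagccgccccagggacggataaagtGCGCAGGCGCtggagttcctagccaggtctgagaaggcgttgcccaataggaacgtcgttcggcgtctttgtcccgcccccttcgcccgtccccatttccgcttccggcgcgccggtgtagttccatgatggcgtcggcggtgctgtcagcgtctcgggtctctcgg
Cox8a (chr19:7217567-7217866, minus strand; 2 GABPA matches): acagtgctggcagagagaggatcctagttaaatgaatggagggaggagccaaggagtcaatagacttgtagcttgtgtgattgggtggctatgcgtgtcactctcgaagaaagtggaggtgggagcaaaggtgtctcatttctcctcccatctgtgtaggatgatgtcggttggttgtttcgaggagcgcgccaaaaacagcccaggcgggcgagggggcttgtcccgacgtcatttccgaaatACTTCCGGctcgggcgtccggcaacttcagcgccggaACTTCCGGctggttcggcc
Ndufs6 (chr13:73328433-73328732, minus strand; 1 NRF1 and 1 YY1 match): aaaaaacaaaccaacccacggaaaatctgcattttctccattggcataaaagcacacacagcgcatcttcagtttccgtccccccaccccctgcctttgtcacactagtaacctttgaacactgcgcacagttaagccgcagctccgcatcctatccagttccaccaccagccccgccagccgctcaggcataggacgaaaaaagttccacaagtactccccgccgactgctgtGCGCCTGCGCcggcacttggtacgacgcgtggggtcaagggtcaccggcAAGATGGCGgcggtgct
Sdha (chr13:74350191-74350490, minus strand; 3 NRF1 matches): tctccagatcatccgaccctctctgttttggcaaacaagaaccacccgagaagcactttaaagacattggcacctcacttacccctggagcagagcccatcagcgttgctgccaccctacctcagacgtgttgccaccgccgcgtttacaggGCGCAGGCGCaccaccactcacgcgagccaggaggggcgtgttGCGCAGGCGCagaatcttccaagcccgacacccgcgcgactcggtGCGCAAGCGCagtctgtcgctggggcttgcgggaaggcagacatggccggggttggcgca
Ndufv3 (chr17:31519865-31520164, plus strand; no match to the 3 motifs): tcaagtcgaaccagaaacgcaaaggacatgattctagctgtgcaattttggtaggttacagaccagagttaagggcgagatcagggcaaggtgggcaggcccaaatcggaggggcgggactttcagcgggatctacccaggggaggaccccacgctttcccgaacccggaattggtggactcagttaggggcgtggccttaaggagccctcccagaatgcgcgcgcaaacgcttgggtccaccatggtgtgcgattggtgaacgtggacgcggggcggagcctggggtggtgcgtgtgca

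The subunits were also divided by the presence of a match. Among nuclear subunits with a window, the 27 tested with at least 1 of the 3 motifs had median log2 fold changes of 0.98, 0.91, 0.71 and 0.72, and the 39 without had 1.10, 1.03, 0.88 and 0.86. Of the 27, 25, 24, 25 and 23 passed as higher, and of the 39, 34, 35, 33 and 33. Cox6a1, an anchor of complex IV, rose by 1.22, 1.31, 0.67 and 0.90, and Ndufs6, a zinc-binding subunit of complex I, by 1.12, 1.29, 0.88 and 0.66. These splits are given without a test.

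Several genes of the mitochondrial genome were lower in stimulated cells. Of its 8 tested genes, 4, 6, 2 and 5 were called lower on stimulation (25.3%, 26.6%, 27.5% and 21.7% of all genes) and none higher, so the 2 in knockout-labelled cells without niacin are at the share of all genes. The medians were -0.90, -2.45, -1.02 and -1.14, in the order knockout-labelled with niacin, wild-type-labelled with niacin, knockout-labelled without and wild-type-labelled without. mt-Nd4 and mt-Nd5, which encode proton-pumping subunits of complex I, passed in all 4 comparisons, and mt-Co1 and mt-Nd3 in none. Without the 4 libraries that stood apart, 5, 6, 6 and 6 passed as lower, with medians of -0.95, -1.64, -0.94 and -1.53. In wild-type-labelled cells with niacin this leaves 1 stimulated library, assumed to vary like the other groups. A single library mattered most in wild-type-labelled cells without niacin, where leaving out the low unstimulated library 1 gave 6 lower and leaving out library 2 gave 2.

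mt-Nd5 had 199, 184 and 135 CPM in stimulated and 514 and 471 CPM in unstimulated knockout-labelled cells with niacin, and 43.4, 33.5 and 164 CPM in stimulated and 661, 535 and 541 CPM in unstimulated wild-type-labelled cells with niacin. Without niacin it had 189, 193 and 163 CPM in stimulated and 582, 492 and 306 CPM in unstimulated knockout-labelled cells, and 157, 169.6 and 166 CPM in stimulated and 301, 667 and 535 CPM in unstimulated wild-type-labelled cells. No stimulated library reached its unstimulated counterparts. The log2 fold change of mt-Nd5 was -1.51 ± 0.43, -2.85 ± 0.42, -1.34 ± 0.40 and -1.61 ± 0.40 (adjusted p = 0.00703, 1.28e-05, 0.00831 and 0.00283). mt-Nd4 had 67.7 to 93.0 CPM in stimulated and 200.2 and 204 CPM in unstimulated knockout-labelled cells with niacin, and 23.5 to 66.1 CPM in stimulated and 231 to 249 CPM in unstimulated wild-type-labelled cells with niacin. The log2 fold change of mt-Nd4 was -1.33, -2.65, -1.11 and -1.53 (adjusted p at most 0.00484).

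mt-Cytb, the cytochrome b core of complex III, had 650.4, 645 and 544 CPM in stimulated and 1336 and 1126 CPM in unstimulated knockout-labelled cells with niacin. It had 163, 194 and 501 CPM in stimulated and 1362, 1333 and 1352 CPM in unstimulated wild-type-labelled cells with niacin. In knockout-labelled cells without niacin it had 631, 711 and 666 CPM when stimulated and 1238, 1085 and 799.7 CPM when unstimulated, and in wild-type-labelled cells without niacin 436, 524 and 618 CPM when stimulated and 641, 1679 and 1219 CPM when unstimulated. The paired groups did not overlap, though the knockout-labelled value without niacin missed the threshold. The log2 fold change of mt-Cytb was -1.01 (adjusted p = 0.0229), -2.24 (1.43e-05), -0.64 (0.1) and -1.17 (0.00618). mt-Nd6, which lies on the other strand of the molecule, had -1.59 (0.0297), -3.15 (0.000143), -1.22 (0.0629) and -1.58 (0.0232). mt-Nd1 and mt-Nd2, complex I core subunits next to the rRNA genes, passed in fewer comparisons: mt-Nd1 with -1.60 (0.000112) and -0.74 (0.0386) in wild-type-labelled cells with and without niacin, and mt-Nd2 with -2.95 (0.000223) in wild-type-labelled cells with niacin. mt-Nd1, mt-Nd2 and mt-Nd6 overlapped between stimulated and unstimulated wild-type-labelled cells without niacin, where library 1 of the unstimulated cells was low. mt-Nd3 held 3 to 47 counts per library and passed nowhere. mt-Nd5 and mt-Nd6 overlap on opposite strands, and since the sources used here give no strand setting for the counting, their reads cannot be told apart there.

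mt-Co1, the catalytic core of complex IV, was not called in any of the 4 comparisons. It had 2406, 2095 and 1725 CPM in stimulated and 1942 and 1770.0 CPM in unstimulated knockout-labelled cells with niacin, and 1114, 1355 and 3080.0 CPM in stimulated and 2290.0, 2209 and 2277 CPM in unstimulated wild-type-labelled cells with niacin. Without niacin it had 2436, 2360.0 and 2061 CPM in stimulated and 1865, 1411 and 977 CPM in unstimulated knockout-labelled cells, and 2678, 2596 and 2444 CPM in stimulated and 1061, 2358 and 1936 CPM in unstimulated wild-type-labelled cells. The groups overlapped with niacin, and without niacin the stimulated libraries lay above the unstimulated ones. Its log2 fold change was 0.16 ± 0.33 (adjusted p = 0.708), -0.29 ± 0.30 (0.425), 0.69 ± 0.30 (0.0577) and 0.53 ± 0.30 (0.155), none past the threshold. In knockout-labelled cells without niacin mt-Co1 was called higher under 7 of 31 alternatives (adjusted p from 0.000257 to 0.204 over all of them), among them limma voom and the fit without the 4 libraries that stood apart (0.44, adjusted p = 0.0113). The others were no filter on low counts and leaving out library 1 of unstimulated knockout-labelled cells without niacin, library 1 of the untreated, unstimulated wild-type label, or library 1 or 3 of its stimulated group with niacin. In wild-type-labelled cells with niacin it was called lower under 2 of 31, limma voom and the fit without stimulated library 3 (adjusted p from 0.00364 to 0.951 over all). mt-Co1 made up 58.6% to 76.7% of the mitochondrial protein gene counts in stimulated libraries, against 33.5% to 43.0% in unstimulated libraries.

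**Figure D5:**
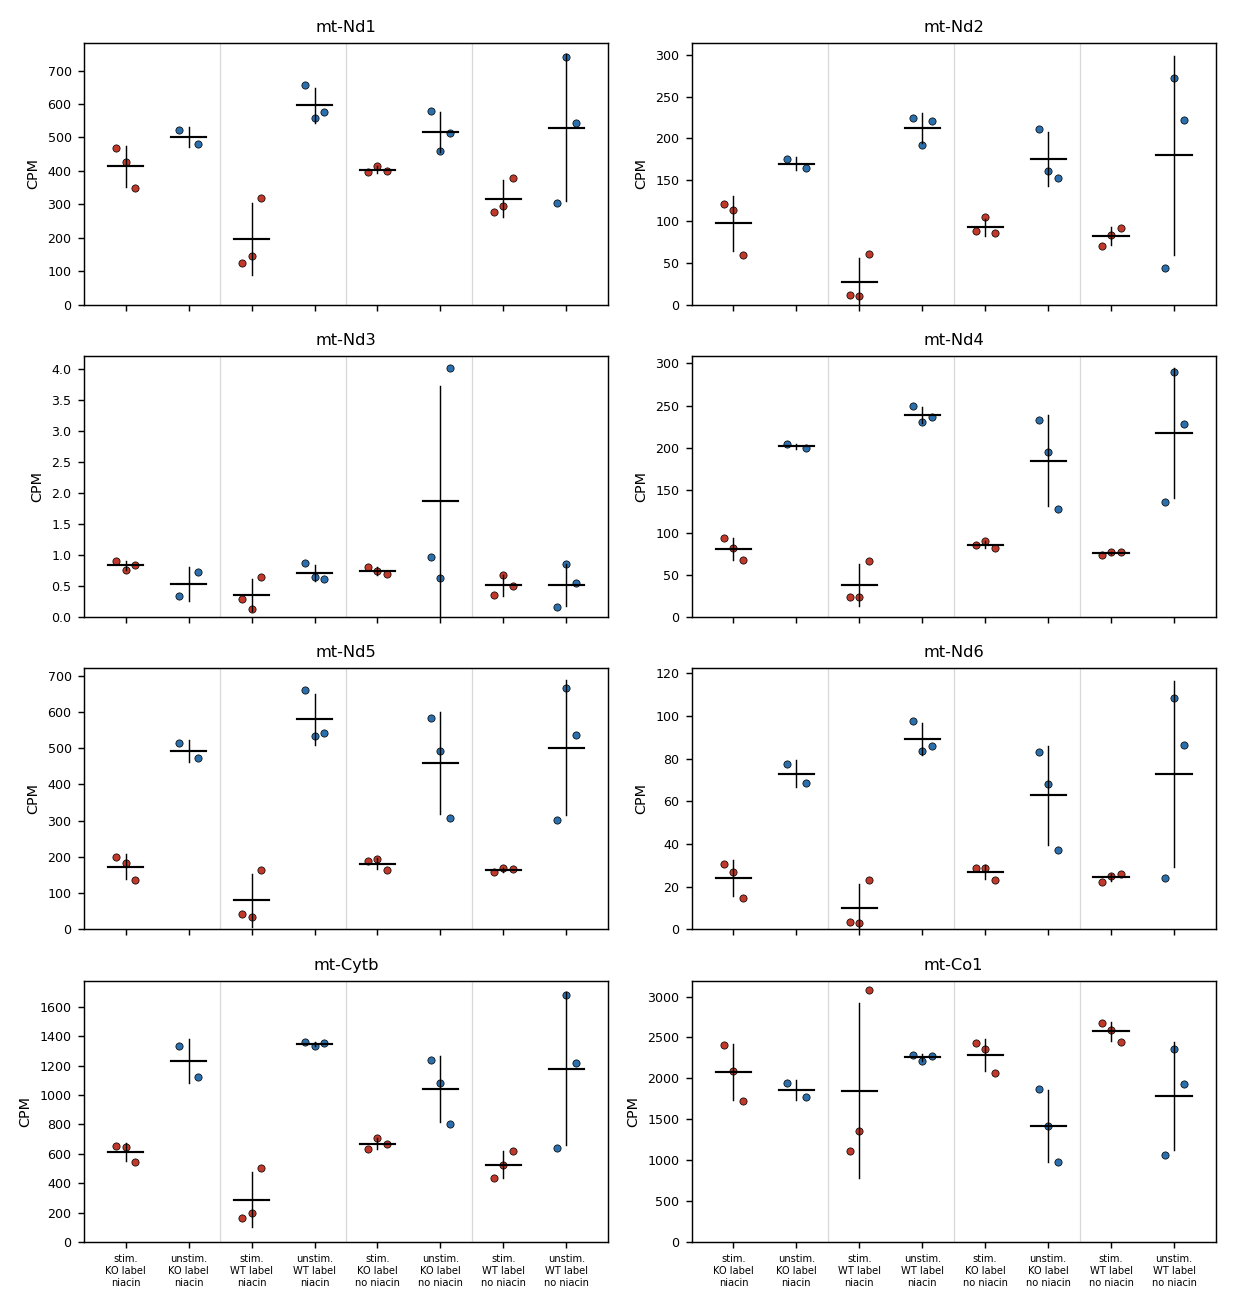
CPM per library of the 8 tested mitochondrial genes in the 8 groups (red, stimulated; blue, unstimulated; horizontal bars, means; vertical bars, SD). mt-Nd4, mt-Nd5 and mt-Cytb are lower in stimulated libraries in each pair of groups, mt-Co1 is not, and stimulated wild-type-labelled cells with niacin split into 2 low libraries and 1 higher library.

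The mitochondrial sum in effect lacks mt-Co2, mt-Co3, mt-Atp6, mt-Nd4l and mt-Atp8, each with at most 4 counts over all libraries. Set against the nuclear subunits, the mitochondrial sum was 19.3% ± 2.73 in stimulated and 55.3% ± 8.73 in unstimulated knockout-labelled cells with niacin (SD, n = 3 and 2). It was 15.6% ± 10.4 in stimulated and 65.6% ± 4.90 in unstimulated wild-type-labelled cells with niacin (SD, n = 3 each). Without niacin it was 22.0% ± 1.64 in stimulated and 44.1% ± 9.94 in unstimulated knockout-labelled cells, and 23.7% ± 1.57 in stimulated and 49.5% ± 20.9 in unstimulated wild-type-labelled cells (SD, n = 3 each). The lower percent in stimulated cells thus combined higher nuclear sums with lower sums of the mitochondrial genes other than mt-Co1. Those were 1404 ± 206 CPM in stimulated and 2670.2 ± 226 CPM in unstimulated knockout-labelled cells with niacin, and 639 ± 431 CPM in stimulated and 3065 ± 166 CPM in unstimulated wild-type-labelled cells with niacin. Without niacin they were 1461 ± 71.9 CPM in stimulated and 2443 ± 493 CPM in unstimulated knockout-labelled cells, and 1190.3 ± 160.3 CPM in stimulated and 2680.4 ± 1161 CPM in unstimulated wild-type-labelled cells.

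The deposited counts cover the mitochondrial genome unevenly. Over all 23 libraries mt-Co1 had 1126943 counts and mt-Cytb 470599, but mt-Co2 had 4, mt-Co3 4, mt-Atp6 3, mt-Nd4l 4, mt-Atp8 0 and mt-Nd3 384. Near-identical nuclear copies on chromosome 1 cover 99.9% of the mt-Co3 transcript, 99.6% of mt-Atp6, 99.0% of mt-Nd4l and 99.1% of mt-Nd3, and those of mt-Co2 on chromosomes 1 and 2 cover it whole. The copies themselves held 4 to 125 counts each set, so the reads are not found there either, and the part of these copies in the low counts was not tested. Copies also cover 63.6% of mt-Nd4 (876 bases at 100% identity), 52.3% of mt-Nd5 and 49.1% of mt-Nd2. They cover the whole of mt-Co1, with 97.6% identity over 1545 bases in the longest match. Another mt-Co1 copy, on chromosome 1, aligns over 483 bases at 99.8% identity. The search covered annotated transcripts only, so a copy outside the annotation would be missed. Among those searched, mt-Atp8, at 0 counts, has no such copy. mt-Nd1, mt-Nd6 and mt-Cytb have none either, and their summed level was 1051 ± 127 CPM in stimulated and 1805 ± 185 CPM in unstimulated knockout-labelled cells with niacin, and 493 ± 306 CPM in stimulated and 2035 ± 73.0 CPM in unstimulated wild-type-labelled cells with niacin. The mitochondrial part of complex IV is thus seen through mt-Co1 alone, and that of complex V is not seen at these counts.

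The 13 factors are set beside 24.5%, 26%, 25.2% and 23.4% of all genes higher and 25.3%, 26.6%, 27.5% and 21.7% lower, in the same order of comparisons. Of the 13, 3 were higher and 0 lower in knockout-labelled cells with niacin, 4 and 1 in wild-type-labelled cells with niacin, 6 and 1 in knockout-labelled cells without and 2 and 1 in wild-type-labelled cells without. Ndufaf6, a complex I assembly factor, was the only one higher in all 4, by 1.96, 1.43, 1.08 and 1.30 (adjusted p at most 0.000837). Ndufaf4, which acts in the early assembly of complex I, had 7.82, 8.67 and 10.7 CPM in stimulated and 23.8, 21.1 and 24.1 CPM in unstimulated wild-type-labelled cells with niacin, but 20.6, 22.6 and 18.5 CPM in stimulated and 20.9 and 22.7 CPM in unstimulated knockout-labelled cells with niacin. It was lower with stimulation in the wild-type-labelled groups, which did not overlap, and overlapped in the knockout-labelled groups. The log2 fold change of Ndufaf4 was -1.34 ± 0.22 (adjusted p = 4.1e-05) and -0.86 ± 0.22 (0.0029) in wild-type-labelled cells with and without niacin, and -0.08 (0.793) and -0.02 (0.939) in knockout-labelled cells. The difference between the labels in this change did not pass with niacin or without it. Ndufaf8 was lower in knockout-labelled cells without niacin (-0.97, adjusted p = 0.00366), where unstimulated library 3 held 61.7 CPM beside 24.3 and 27.3 CPM. Without that library the value was -0.43 (adjusted p = 0.0495).

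For the lists that follow, 24.5%, 26%, 25.2% and 23.4% of all genes were higher and 25.3%, 26.6%, 27.5% and 21.7% lower. Of 12 tested electron carriers and enzymes that make ubiquinone, 9, 7, 10 and 9 were higher and none lower. Coq7, a hydroxylase of ubiquinone synthesis, had 34.5 ± 2.10 CPM in stimulated and 8.34 ± 1.42 CPM in unstimulated knockout-labelled cells with niacin (SD, n = 3 and 2), and rose by 2.05, 1.73, 1.87 and 1.39. Cycs, cytochrome c, rose by 1.24, 1.12 and 0.59 and had 0.25 in wild-type-labelled cells with niacin (adjusted p = 0.375). Of 31 assembly factors outside the prefixes, 12, 11, 14 and 11 were higher and 1, 1, 3 and 1 lower, with Sco1, a copper chaperone of complex IV, higher by 1.22, 1.29, 2.02 and 1.25. Of 17 tricarboxylic acid cycle genes, 13, 9, 14 and 8 were higher and 0, 1, 0 and 1 lower.

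Of 23 genes for transcription, replication and RNA stability of mitochondrial DNA, 4, 4, 9 and 3 were higher and 2, 8, 4 and 7 lower, beside 24.5%, 26%, 25.2% and 23.4% of all genes higher and 25.3%, 26.6%, 27.5% and 21.7% lower. Tefm, an elongation factor of mitochondrial transcription, rose by 1.28, 1.22, 1.46 and 1.27. Polrmt, the mitochondrial RNA polymerase, had 59.3 ± 8.68 CPM in stimulated and 74.2 ± 2.84 CPM in unstimulated knockout-labelled cells with niacin, and 64.8 ± 12.4 CPM in stimulated and 77.4 ± 8.84 CPM in unstimulated wild-type-labelled cells with niacin. Without niacin it was lower in both, at -0.95 (adjusted p = 0.00133) in knockout-labelled and -0.63 (0.0243) in wild-type-labelled cells, and with niacin neither value passed (-0.32 and -0.26, adjusted p = 0.278 and 0.331). Tfam, which packages and activates mitochondrial DNA, passed only in knockout-labelled cells without niacin (0.48, adjusted p = 0.0145). Of 10 regulators of respiratory genes, 3, 2, 3 and 2 were higher and 1, 3, 2 and 3 lower, where the same shares of all genes apply. Ppargc1b, a coactivator of mitochondrial biogenesis, had log2 fold changes of -1.56, -1.13, -1.91 and -1.44 (adjusted p at most 0.000278). Myc, a transcription factor of growth, rose by 1.65, 1.92, 1.23 and 1.58 (adjusted p at most 7.36e-05). Hif1a, the oxygen-regulated transcription factor, rose by 0.81, 1.03 and 0.83 and had 0.16 in wild-type-labelled cells with niacin (adjusted p = 0.383), where it stood at 235.5 ± 46.9 CPM in stimulated and 210.6 ± 50.8 CPM in unstimulated cells (SD, n = 3 each).

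Niacin changed no member past the threshold in any of the 4 backgrounds with edgeR. In stimulated cells it was 0 of 101 with 3 at an unadjusted p under 0.05 in knockout-labelled cells (0.00592% of all genes called) and 0 with 12 in wild-type-labelled cells (0% of all genes). In unstimulated cells it was 0 with 5 in knockout-labelled and 0 with 5 in wild-type-labelled cells (0% of all genes each). DESeq2 also called 0 members in each of the 4. limma voom called 15 in stimulated wild-type-labelled cells, where it called 616 of 16882 genes higher and 1212 lower, and 0 members in the other 3. The median log2 fold change of nuclear subunits with niacin was 0.11 and 0.05 in stimulated and -0.02 and -0.16 in unstimulated knockout-labelled and wild-type-labelled cells. All 8 tested mitochondrial genes had log2 fold changes below 0 with niacin in stimulated wild-type-labelled cells, none past the threshold, with a median of -0.94 and a smallest adjusted p of 0.405, and libraries 1 and 2 were the lowest: mt-Nd2 had 11.3, 10.2 and 60.7 CPM with niacin and 71.0, 83.8 and 92.2 CPM without. In stimulated knockout-labelled cells the median was -0.08, and mt-Nd2 had 120.5, 113.5 and 60.0 CPM with niacin and 88.0, 105 and 85.7 CPM without.

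Genotype labels differed in 2 of 101 members, both in stimulated cells with niacin, where 1.44% of all genes were called. The count of members is thus near the share of all genes. Ndufaf4 was higher in knockout-labelled cells, at 20.6, 22.6 and 18.5 CPM, against 7.82, 8.67 and 10.7 CPM in wild-type-labelled cells, with a log2 fold change of 1.18 ± 0.22 (adjusted p = 0.0111). Cox7a2l was lower in knockout-labelled cells, at 73.8, 83.6 and 65.7 CPM, against 120.4, 121 and 96.4 CPM in wild-type-labelled cells, with -0.60 ± 0.13 (adjusted p = 0.0328). Neither gene's groups overlapped, but 2111 of the 16882 genes tested lay higher without overlap in this comparison and 2367 lower. Without the 4 libraries that stood apart, which leaves 1 of the wild-type-labelled libraries assumed to vary like the other groups, they had 0.92 (adjusted p = 0.153) and -0.40 (0.262). Ndufaf4 also missed the threshold without wild-type-labelled library 1 or 2 (adjusted p = 0.0854 and 0.0588) and without library 2 of the knockout-labelled ones (0.0551). Cox7a2l missed it when wild-type-labelled library 1 or 2 was dropped (0.154 and 0.106) and without any 1 of the 3 knockout-labelled libraries (0.0523 to 0.134). The mitochondrial genes had log2 fold changes above 0 here (median 1.10, or 0.26 without the 4 libraries), none past the threshold, and the smallest adjusted p was 0.0586 for mt-Nd1. With edgeR, 0 members passed between labels in stimulated cells without niacin (3 at an unadjusted p under 0.05; 0.113% of all genes called), in unstimulated cells with niacin (1; 0.0355%) and in unstimulated cells without niacin (9; 0.0415%), and DESeq2 and limma voom also called 0 in each.

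The changes of 1 factor with another were tested as interactions. For niacin by stimulation, edgeR called 0 of 101 members in knockout-labelled cells (0% of all genes called; 5 members at an unadjusted p under 0.05; DESeq2 0, limma voom 0) and 0 in wild-type-labelled cells (0%; 13; DESeq2 0, limma voom 26). For label by stimulation edgeR called 0 with niacin (0%; 16; DESeq2 1, limma voom 24) and 0 without (0.00592%; 4; DESeq2 0, limma voom 0). Over all 16882 genes limma voom called 605 higher and 758 lower where it called 26 members, and 1247 higher and 858 lower where it called 24. A missed threshold does not show that the groups responded alike.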

How the data were processed

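RNA for the 23 libraries was converted with the SMART-seq v4 low-input kit and sequenced as pairs of 50-base reads, per the labels. The authors deposited raw counts per gene; Trimmomatic 0.38, STAR 2.7.0e and featureCounts 1.6.3 and the builds GRCm38.p5 and mm10 are named in the submitters' processing notes. The sources used here do not give the strand setting, the handling of multi-mapping reads or the annotation release. The deposited table also gives a gene length, used for CPM per kb. Symbols came from GENCODE vM21 (53274 of 53379 IDs).

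The counts were fitted in edgeR 4.0.16 (R 4.3.3; TMM factors, minimum count 10, quasi-likelihood test, 16882 genes, 1 mean per group, 15 residual degrees of freedom), with Benjamini-Hochberg adjustment over all genes and a threshold of 0.05. The pipeline was tested on simulated data. CPM used TMM library sizes. Pooled count ratios carry exact 95% intervals. Near copies were found with BLAST 2.17.0 among GENCODE vM21 transcripts only, and motifs with Python 3.11.15. Alternatives used DESeq2 1.42.0, limma 3.58.1 (voom with sample weights), other scaling and filters, and libraries left out.

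The members and lists were chosen with earlier results of these data known. Named genes were the mitochondrial protein genes, core subunits, isoform groups, up to 6 members per direction and comparison with the largest change at 5 CPM or more, and up to 3 genes per pathway list with the smallest adjusted p, plus set regulators. Ndufb4, Ndufaf8 and genes of single clauses outside this rule were chosen after their values were seen.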

Additional observations from a re-analysis of the deposited data

How the results depend on the processing

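The counts of nuclear subunits called higher with stimulation stayed within 1.5 times of the reported ones under all 31 alternatives, at 59 to 75 in knockout-labelled cells with niacin, 68 to 72 in wild-type-labelled cells with niacin, 63 to 72 in knockout-labelled and 56 to 73 in wild-type-labelled cells without niacin when 1 library was left out. Mitochondrial genes called lower ranged over 2 to 4, 6 to 7, 2 to 4 and 2 to 6 in the same order. In knockout-labelled cells without niacin, where 2 were reported, there were 5 with no filter on low counts, 5 with limma voom, 5 with the compared groups alone and 6 without the 4 libraries that stood apart. Most of those 4 libraries were set apart by their mitochondrial share, so that choice used the values tested.

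Between labels in stimulated cells with niacin, where 2 members were reported, DESeq2 called 9, no filter 11, limma voom 39 (with 1876 of all genes higher and 1527 lower), the compared groups alone 1 and the fit without the 4 libraries 0, and leaving out 1 library gave 0 (library 1 of the wild-type-labelled group) to 19 (library 3 of unstimulated knockout-labelled cells without niacin). For label by stimulation with niacin DESeq2 called 1, no filter 6, limma voom 24 and single libraries left out 0 to 6. For niacin in stimulated wild-type-labelled cells no filter gave 7, limma voom 15 and single libraries left out 0 to 8, the highest without library 3 with niacin. For niacin by stimulation in wild-type-labelled cells they gave 6, 26 and 0 to 6. No filter also gave 2 for niacin in unstimulated knockout-labelled cells, 2 between labels in unstimulated cells without niacin and 1 for niacin by stimulation in knockout-labelled cells. The cause was not tested.

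Correlations of same-numbered libraries ran from -0.18 to 0.289. They were positive for every number between niacin and no niacin in unstimulated cells (0.0253 to 0.289 in wild-type-labelled, 0.0913 and 0.141 in knockout-labelled cells), but in no comparison of 3 pairs were all over 0.1, so the libraries are treated as sharing a number only. With the replicate block, 70, 70, 70 and 69 nuclear subunits were higher and 3, 6, 2 and 5 mitochondrial genes lower, 2 members differed between labels in stimulated cells with niacin, and 0 in every other comparison. Depth limits the low isoforms and mt-Nd3, which rest on few counts per library.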

Other observations

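Ndufb1-ps, left out by the rule because the annotation classes it as a bidirectional promoter lncRNA, held 18672 counts, while the other 12 excluded symbols held 4 to 142. Its log2 fold change with stimulation was 1.56 (adjusted p = 0.000268) in knockout-labelled cells with niacin, 0.59 (0.0578) in wild-type-labelled cells with niacin, 1.17 (0.000856) in knockout-labelled and 1.18 (0.000981) in wild-type-labelled cells without niacin.

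The mitochondrial rRNA genes, which lie upstream of mt-Nd1, were not called lower with stimulation in most comparisons. Among the protein genes, the same held for mt-Co1, mt-Nd2 and mt-Nd3. mt-Rnr1 passed in none of the 4, with log2 fold changes of -0.21, -0.62, 0.08 and 0.10 in the same order. mt-Rnr2 passed in wild-type-labelled cells with niacin (-1.48, adjusted p = 0.00955), where libraries 1 and 2 of the stimulated cells were low in mitochondrial counts, and had -0.45, -0.22 and 0.01 in the others. These values were given by edgeR and their difference from the protein genes was not tested.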
